A study of Mus musculus with 5 samples.

Results

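The Peg3 domain is a cluster of imprinted genes on mouse chromosome 7. It was followed here through 4 of the 53700 counted gene features, taken by their Ensembl gene identifiers: those labelled Peg3 (ENSMUSG00000002265), Usp29 (ENSMUSG00000051527), Zim3 (ENSMUSG00000108043) and Zim1 (ENSMUSG00000002266). They were chosen by their counts in the KI and WT libraries, with the difference between the genotypes known. That difference is therefore given for them as a description, without a test.

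RNA was sequenced from striatal homogenates of adult mice in 5 libraries. The 2 KI libraries (replicates 1 and 3) came from a line that carries the R419W allele in the endogenous Adcy5 gene, which encodes the main adenylyl cyclase of striatal neurons, and the 3 WT libraries (replicates 1, 2 and 3) from wild-type littermates. Whether the KI animals carried the allele on 1 or both chromosomes, and whether each library was a separate animal, is not given in the labels, so the spread between libraries may be in part technical. In whole tissue, fewer cells of a type and less RNA per cell cannot be told apart.

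Imprinted genes are transcribed mainly from the copy inherited from a given parent. In the mouse, Peg3 and Usp29 are transcribed from the paternal copy and Zim1 from the maternal copy. Peg3 encodes a large zinc finger protein, is strongly expressed in brain, and is known for its effects on growth and maternal behaviour. Usp29 encodes a member of the ubiquitin-specific protease family, enzymes that remove ubiquitin from proteins, and Zim1 encodes another zinc finger protein. Peg3 and Usp29 lie head to head, so that a short stretch of DNA serves as the start region of both and is methylated on the maternal copy.

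That start region is shown because Peg3 and Usp29 are read in opposite directions from it. In the RefSeq windows of GRCm38.p6, the start site of Peg3 lies at 6730419 on the minus strand of chromosome 7 and that of Usp29 at 6730583 on the plus strand, 164 bases apart. The first sequence is the gap left between both genes by their RefSeq gene spans, from 6730463 to 6730558, on the plus strand, with the letters CCAAT in capitals. These spans take in all transcripts and reach beyond the start sites above. The second is the 30 bases from 6730579 to 6730608, with the letters TGACGTCA in capitals, the core of the cAMP response element that binds proteins of the CREB family. The third is the stretch before the RefSeq span of Zim1, from 6696541 to 6696682, on the minus strand, shown for the neighbour read from the maternal copy.
Peg3 and Usp29 gap: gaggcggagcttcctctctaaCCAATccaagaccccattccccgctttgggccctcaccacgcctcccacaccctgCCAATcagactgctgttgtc
Peg3 and Usp29 cAMP response element: aggcacggagtTGACGTCAacggagtcagt
Zim1 upstream: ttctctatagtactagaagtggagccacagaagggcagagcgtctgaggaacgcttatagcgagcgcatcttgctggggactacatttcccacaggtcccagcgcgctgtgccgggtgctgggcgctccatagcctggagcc

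Motifs were searched on both strands in all 32851 RefSeq windows of 300 bases, from 250 before to 50 after each start. TGACGTCA, which reads the same on both strands, was found once in the overlapping windows of Peg3 and Usp29. It begins 7 bases after the Usp29 start and 171 bases before that of Peg3. It was absent from the windows of Zim1 and of Zim2, a further gene of the domain. Of all windows, 588 (1.79%) held it, and it was looked for after the sequence had been seen. CCAAT was found at 2 places in each of the Peg3 and Usp29 windows and in 37.4% of all windows, and at none in the Zim1 window. GGGCGG was found once in the Zim1 window and in 35.7% of all windows. GCCATNTT, the core of the site bound by YY1, a factor known to bind inside this domain, was in none of the windows of Peg3, Usp29, Zim1 and Zim2 and in 6.05% of all. A match describes the letters only and shows no binding, and a missing match says nothing of other stretches of the domain. The windows of Peg3, Usp29 and Zim1 held 13, 17 and 20 CpG dinucleotides, the sites of DNA methylation, against a median of 7 over all windows. Fewer were held by 62.1%, 68.6% and 73.5% of all windows.

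The features do not cover the genes evenly, because they lie at GRCm39 positions while the counts fall where reads placed on GRCm38 would. Of all features, 33901 (63.13%) lie over no GRCm38 exon and held 1.057% of the counts. Where the label is that of a protein-coding gene, the median count summed over the libraries was 292 for 12812 features over such an exon and 0 for the other 9117. In this domain the builds differ by a constant 2999 bases, which is less than the length of the last exons, so each feature still reads part of its own gene or of its neighbour. Peg3 spans 6703892 to 6730431 of chromosome 7 (GRCm38, minus strand), and its feature covers 6743 of 13324 exon bases, with 4473 of 4767 coding bases. Usp29 spans 6730578 to 6967219 (plus strand), and 4822 of 18078 exon bases are covered. Of these, 3089 lie in the untranslated end of the transcript and 187 are coding, so the level given for Usp29 is mainly that of its 3′ end. The same feature also covers all 1422 exon bases of Gm44863, inside the Usp29 span, and 245 bases of Zim3.

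The feature labelled Zim3 reads Usp29. It covers 2524 bases of the Usp29 end and 95 of the 3755 exon bases of Zim3, an antisense transcript from 6955685 to 6977420, and its levels are given here as those of the Usp29 end. It shares 2582 bases with the Usp29 feature, and a fragment over both was counted in each, so they are not independent measurements. Zim1 spans 6671269 to 6696450 (minus strand), and its feature covers a single stretch of 3995 bases, of which 1337 are coding. The map of covered exon stretches shows these positions.

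**Figure D1:**
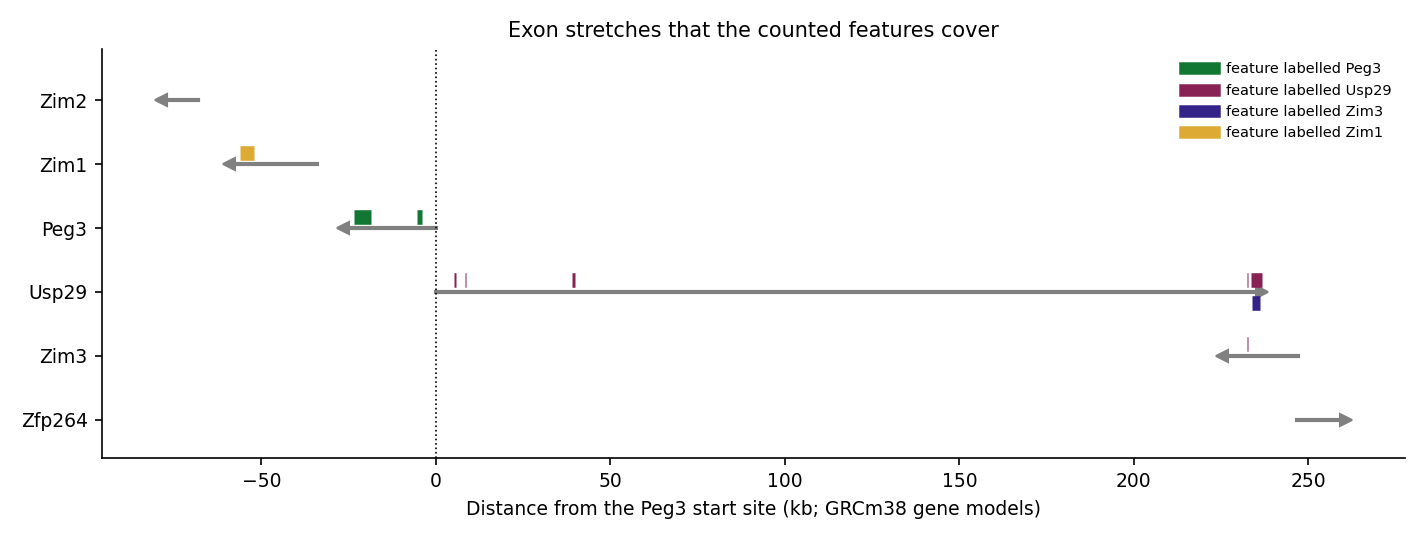
The horizontal axis gives the distance from the Peg3 start site in kb, grey arrows the GRCm38 genes and their direction, and coloured blocks the exon stretches under each counted feature. Zim1 is read in a single stretch in its 3′ part, Peg3 in its 3′ part and in a stretch of 1643 bases nearer its start, and the features labelled Usp29 and Zim3 meet over the last exon of Usp29, where they share 2524 of its bases.

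Peg3 was abundant in the striatum and higher in both KI libraries. It held 7646, 7355 and 6496 counts in WT replicates 1, 2 and 3, against 11843 and 12642 in KI replicates 1 and 3. In CPM, the unit of counts relative to the TMM-scaled library total, these are 1004, 983 and 994.3 in WT against 1605 and 1565 in KI. The groups did not overlap, and the lower KI library stood 1.56-fold above the highest WT library. The mean was 993.8 ± 10.6 CPM in WT (SD, n = 3) and 1585 ± 27.8 in KI (SD, n = 2), a log2 fold change of 0.67 (SE 0.09) or 1.59-fold. The spread between WT libraries was 1.07% of the mean, where counting error alone at this depth gives 1.18%. Among 13665 tested features Peg3 ranked 119 by mean WT level and 51 by mean KI level.

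Usp29, transcribed from the same start region in the other direction, was higher in KI as well. It held 1408, 1264 and 1178 counts in WT against 2905 and 2841 in KI, or 184.9, 168.9 and 180.3 CPM against 393.6 and 351.8. The KI libraries lay 1.90-fold or more above the highest WT library, with WT replicate 2 the lowest of all. The means were 178.1 ± 8.23 CPM in WT (SD, n = 3) and 372.7 ± 29.6 in KI (SD, n = 2), a log2 fold change of 1.07 (SE 0.12) or 2.09-fold. The WT spread was 4.62%, against 2.79% from counting alone.

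The 3′ end of Usp29, read by the feature labelled Zim3, gave nearly the same difference. Its counts were 1007, 863 and 755 in WT against 1933 and 1878 in KI, or 132.3, 115.3 and 115.6 CPM against 261.9 and 232.6 (log2 fold change 1.03, SE 0.13). These counts came to 71.5%, 68.3% and 64.1% of the Usp29 counts in WT and to 66.5% and 66.1% in KI, and those shares overlapped between the groups. Subtracting them leaves 401, 401 and 423 counts in WT against 972 and 963 in KI. This is at most the number of Usp29 fragments that touch none of the shared stretch, since the feature labelled Zim3 also counts fragments that lie beyond the Usp29 feature. This remainder was 57.0 ± 6.72 CPM in WT (SD, n = 3) and 125.5 ± 8.77 in KI (SD, n = 2), and the groups did not overlap.

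Zim1, the maternally expressed neighbour, was far less abundant and more variable. It held 94, 54 and 91 counts in WT against 174 and 374 in KI, or 12.3, 7.22 and 13.9 CPM against 23.6 and 46.3. Both KI libraries were above all WT libraries, with KI replicate 3 well above KI replicate 1 and WT replicate 2 below the other WT libraries. The means were 11.2 ± 3.51 CPM in WT (SD, n = 3) and 34.95 ± 16.1 in KI (SD, n = 2), a log2 fold change of 1.65 (SE 0.34). Without KI replicate 3 the log2 fold change was 1.08. The WT spread of 31.4% compares with 11.2% from counting alone.

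**Figure D2:**
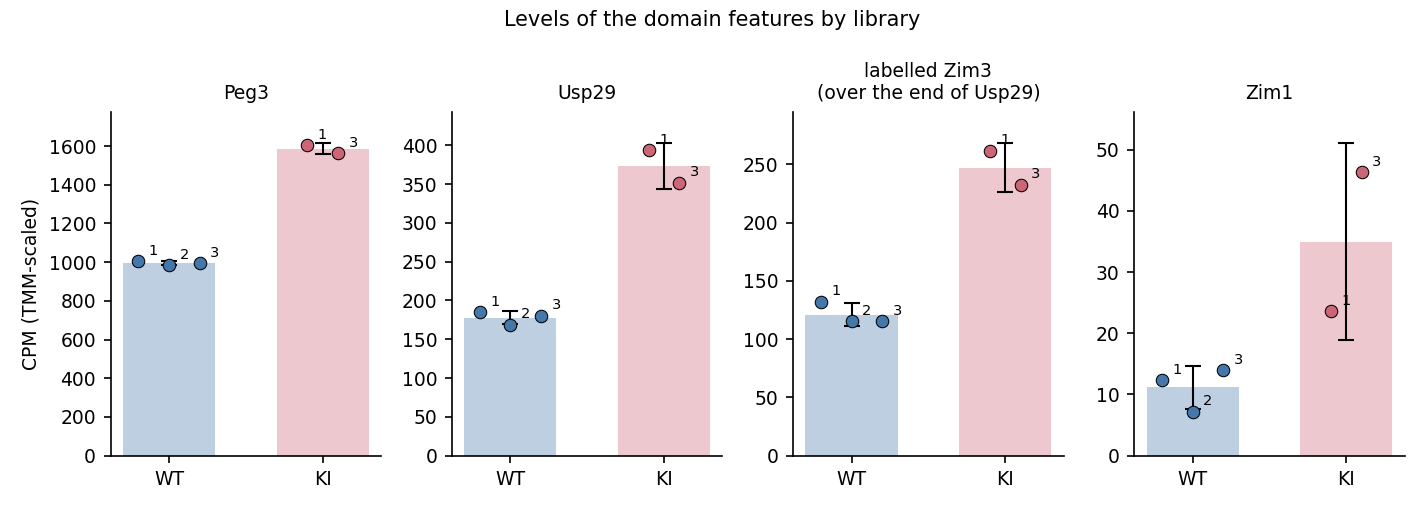
Each panel shows a feature: points are libraries (numbered by replicate), bars the group mean, whiskers the SD, and the vertical axis CPM from 0. Peg3 stands near 994 CPM in WT and 1585 in KI with little spread, and Zim1 at 7.22 to 13.9 CPM in WT against 23.6 and 46.3 in KI.

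All 4 features had both KI libraries above all 3 WT libraries, which held for 11.3% of all tested features. In the edgeR quasi-likelihood test over the 13665 features, Peg3, Usp29 and the feature labelled Zim3 were among the 6 called higher in KI at an adjusted p under 0.05 (0.0439% of those tested), and Zim1 was not. Since these values chose the features and 2 of them share reads, the counts are given as a description. The fold differences of the features also differed in size. Usp29 counts came to 18.4%, 17.2% and 18.1% of Peg3 counts in WT and to 24.5% and 22.5% in KI, and Zim1 counts to 1.23%, 0.734% and 1.40% in WT and to 1.47% and 2.96% in KI.

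Levels per length gave an order of the genes that was the same in every library. Per kb of covered exon, Peg3 stood at 147.4 ± 1.58 CPM in WT (SD, n = 3) and 235.1 ± 4.12 in KI (SD, n = 2). The 3′ end of Usp29 followed at 48.0 ± 3.85 and 98.0 ± 8.23 CPM per kb, and the whole Usp29 feature at 36.9 ± 1.71 and 77.3 ± 6.13. Zim1 was lowest at 2.79 ± 0.878 and 8.75 ± 4.02 CPM per kb. No ranges of neighbours in this order overlapped within a group. Peg3 was 3.88, 4.16 and 3.94 times as abundant as Usp29 per covered base in WT and 2.92 and 3.18 times in KI. Against Zim1 the ratio was 42.3 to 80.7 in WT against 40.3 and 20.0 in KI. These ratios rest on partly covered transcripts and compare the covered stretches.

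The other genes of the domain were near 0. Zim2, whose feature covers 88 exon bases, had 5 counts in KI replicate 3 and 0 in the other libraries. Zfp264, annotated as a transcribed pseudogene in the domain, had 2 counts in WT replicate 1 and 0 elsewhere over 100 exon bases. Where no fragment was counted, the level may still reach 0.379 to 0.455 CPM, depending on the library (3 counts of the total, for counting error only). Within the Usp29 span, 8 further features lie over none of its exons. Together they had 1, 15 and 0 counts in WT against 22 and 67 in KI, and 5 of them had any count. The feature labelled Gm44587 had the most counts, 0, 2 and 0 in WT against 13 and 24 in KI, so that both KI libraries lay above all WT libraries. The feature labelled Gm44586 followed, with 1, 7 and 0 counts in WT against 2 and 26 in KI, where KI replicate 1 lay below WT replicate 2. The summed KI counts lay above all WT counts.

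Around the domain, the other features inside its span and within 1 Mb on either side were compared. Among them are zinc finger, olfactory receptor and vomeronasal receptor genes. Of 91 features there, 23 were tested, 12 higher and 11 lower in KI, and the median log2 fold change was 0.15 (over all tested features the median was 0.00, with 49.7% higher). The edgeR quasi-likelihood test called 0 of the 23 at an adjusted p under 0.05, against 0.102% of all features, and limma voom and the DESeq2 Wald test called 0. An unadjusted p under 0.05 was found for 2 (6.4% of all features), those labelled Gm44587 and Gm45631. Both KI libraries lay beyond all WT libraries in 8 of the 23, against 22.4% of all features. Of these 8, 6 lay above, with Gm44587 among them, against 11.3% of all features, and 2 lay below. Gm44587 lies inside the Usp29 span and passed the low-count filter only through its KI counts, so its difference is a description only. The nearest tested genes on the side of Usp29, at 137270 bases and more, were the zinc finger genes Zfp954 at 0.58 (SE 0.39), Zfp773 at 0.74 (SE 0.42), Zfp418 at 0.38 (SE 0.40) and Zfp772 at -0.03 (SE 0.30), all log2 fold changes. The nearest on the side of Zim1 were the features labelled Gm20715 at -0.27 (SE 0.34), Smim17 at -0.69 (SE 0.33), Zfp28 at 0.52 (SE 0.26) and Zfp78 at -0.17 (SE 0.35), at 229578 bases and more. Clcn4, a chloride transporter gene and the most abundant of this stretch, stood at 264.5, 235.4 and 278.4 CPM in WT against 282.8 and 294.7 in KI. The feature labelled Gm45631, which covers 461 exon bases of Clcn4, stood at 12.6, 11.1 and 9.80 CPM in WT against 20.5 and 15.2 in KI (log2 fold change 0.67, SE 0.31).

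**Figure D3:**
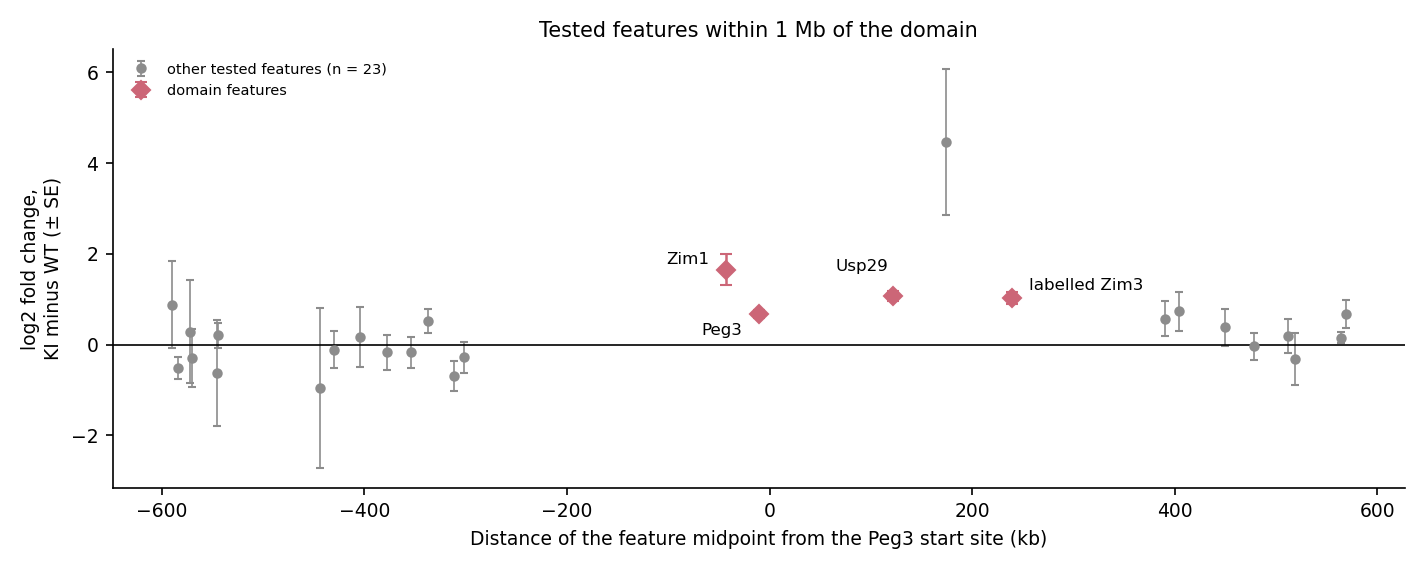
Log2 fold changes (KI minus WT, whiskers SE) are plotted against the distance of each feature's midpoint from the Peg3 start site in kb, with the 4 domain features as diamonds and the 23 other tested features as grey circles. The domain features lie between 0.67 and 1.65. The highest circle is the feature labelled Gm44587 inside the Usp29 span, which had 0, 2 and 0 counts in WT against 13 and 24 in KI. It passed the low-count filter only through its KI counts.

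Other paternally expressed imprinted genes were read from a list of 29, of which 10 had a feature over their exons and 8 were tested. All 8 had a log2 fold change above 0, with a median of 0.35, where 49.7% of all features were higher. The edgeR quasi-likelihood test called 1 of them, Peg10, higher (0.0439% of all features were called higher), and the list was written with earlier results of these data known. With features taken by their label in the files instead, 14 were tested, the median was 0.33 and Peg10 was again the 1 called. Peg10, a gene derived from a retrotransposon, stood at 198.2, 136.9 and 184.4 CPM in WT against 943.4 and 974.7 in KI, far outside the WT range (log2 fold change 2.47, SE 0.14). The smallest differences were those of Sgce, which encodes epsilon-sarcoglycan (0.12, SE 0.15), and Peg13, a noncoding RNA (0.07, SE 0.15). Zdbf2, at 24.4, 24.9 and 34.4 CPM in WT against 52.2 and 50.1 in KI, did not pass (edgeR adjusted p = 0.1608), and the DESeq2 Wald test called it. The other members tested were Rasgrf1 at 0.34 (SE 0.12), Rtl1 at 0.36 (SE 0.14), Kcnq1ot1 at 0.32 (SE 0.34) and Snhg14 at 0.56 (SE 1.40). The feature over Rtl1 covers 440 of its exon bases, is labelled Rian, and also covers exons of Rian and Meg3. Both are noncoding transcripts read from the maternal copy, so its level is not that of Rtl1 alone.

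Genes listed as maternally expressed and imprinted, other than Zim1, were split. Of 27 on the list, 11 had a feature and 9 were tested, 4 higher and 5 lower in KI, and the median log2 fold change was -0.03. This split depends on the naming by position. With features taken by their label in the files instead, 15 were tested, the median was 0.25 and 0 were called. The feature labelled Rian, which also covers exons of Meg3, is counted above as Rtl1. The edgeR quasi-likelihood test called 0 of the 9 named by position (0.102% of all features), and limma voom and the DESeq2 Wald test each called 1, Meg3. An unadjusted p under 0.05 in the edgeR test was found for 3, Meg3, Calcr and Asb4 (6.4% of all features). Meg3, a noncoding RNA of brain, stood at 2470, 2848 and 3020 CPM in WT against 3495 and 4350 in KI, so the groups did not overlap (edgeR adjusted p = 0.09273). Calcr, which encodes the calcitonin receptor, was at 4.73, 0 and 2.30 CPM in WT against 16.9 and 12.6 in KI (edgeR adjusted p = 0.3684). The counts do not separate the parental copies of any gene, so they do not show whether a listed gene is imprinted in the striatum.

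**Figure D4:**
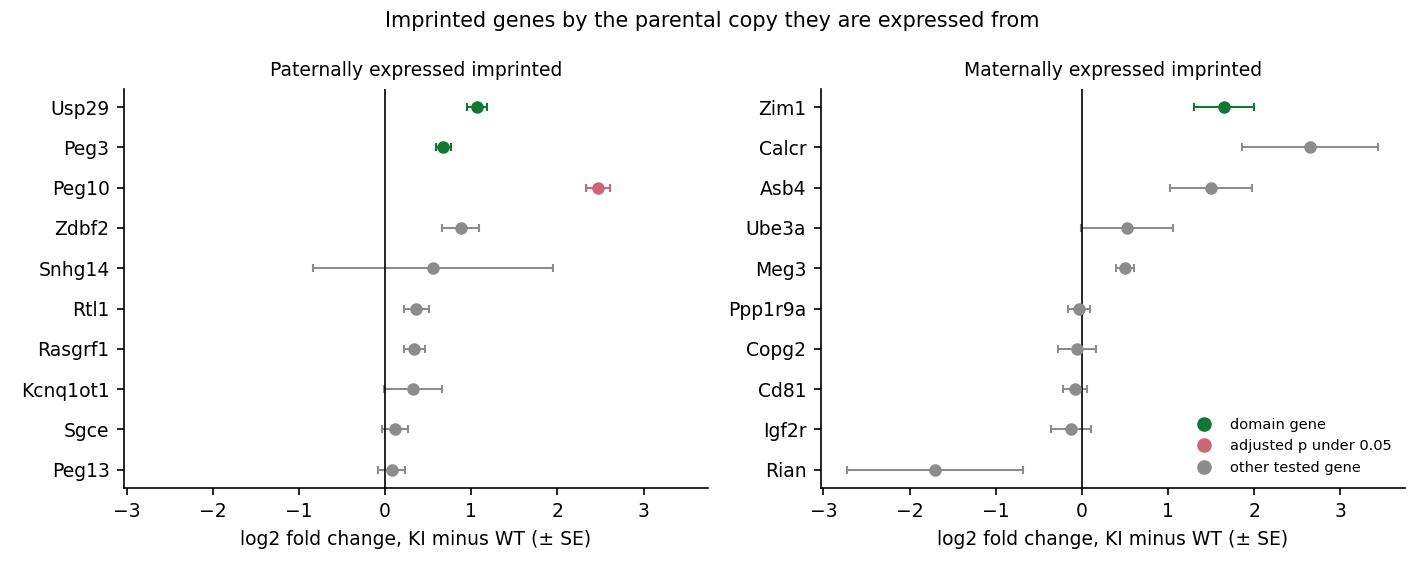
Points are log2 fold changes (KI minus WT) with SE, for paternally expressed genes on the left and maternally expressed genes on the right; green marks Peg3, Usp29 and Zim1, and red the listed gene past the edgeR threshold, Peg10. All tested paternally expressed genes lie to the right of 0, from 0.07 for Peg13 to 2.47 for Peg10. The maternally expressed genes run from -1.71 for Rian to 2.65 for Calcr. The point for Rian rests on 77 of its exon bases, with 34, 13 and 17 counts in WT against 3 and 11 in KI. The feature plotted as Rtl1 is labelled Rian and also covers exons of Rian and Meg3.

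Usp29 was also set beside its enzyme family. Of 49 other ubiquitin-specific protease genes, 21 had a feature and 20 were tested, 11 higher and 9 lower in KI, and the median log2 fold change was 0.00. The edgeR quasi-likelihood test called 0 of the 20 (0.102% of all features). Its unadjusted p was under 0.05 for 1 (6.4% of all features), Usp2, which limma voom and the DESeq2 Wald test called lower. Usp2, a rhythmically expressed member, stood at 56.7, 72.8 and 72.4 CPM in WT against 37.7 and 28.1 in KI (log2 fold change -1.03, SE 0.20). Usp28, the next by p, stood at a log2 fold change of -0.48 (SE 0.26). Usp11, the member with the most counts, stood at 0.00 (SE 0.10).

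Genes that maintain imprints or act on proteins of this domain were measured in 15 of 24 cases and tested in 12. These were 6 higher and 6 lower, and the median log2 fold change was 0.06. The edgeR quasi-likelihood test, limma voom and the DESeq2 Wald test each called 0 (0.102% of all features by edgeR). None had an unadjusted p under 0.05 in the edgeR test (6.4% of all features did). Bax, a mediator of apoptosis that acts with Peg3 in cell death, stood at -0.28 (SE 0.18), and Dnmt1, the methyltransferase that copies DNA methylation at cell division, at 0.30 (SE 0.19). Yy1 was at -0.04 (SE 0.17) and Ctcf, a chromatin insulator protein, at -0.04 (SE 0.25). No feature covers Trim28 or Zfp57, which protect methylated imprints, so their levels are not given here.

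The profile of Peg3 over the 5 libraries was compared with those of 4478 features that cover a single protein-coding gene at a mean of at least 10 CPM. Likeness was the root mean square difference of log2 CPM after centring each profile on its own mean. The nearest was Rgs10, a regulator of G protein signalling that also lies on chromosome 7, at a difference of 0.04, with 93.0, 88.9 and 94.3 CPM in WT against 154.1 and 153.3 in KI. It was followed by Smc5 (0.07), of a chromosome maintenance complex, Hrh3 (0.07), the presynaptic histamine receptor, Trim24 (0.08), a transcriptional co-regulator, and Wdr35 (0.09), of the cilium. Their features cover only 154 exon bases of Rgs10, 47 of Smc5, 220 of Hrh3, 194 of Trim24 and 299 of Wdr35. Those read as Rgs10, Hrh3 and Wdr35 are labelled Sec23ip, Slco4a1 and Matn3. The median over all candidates was 0.39. Usp29 stood at 0.20, with 135 candidates closer to Peg3, and Zim1 at 0.63, with 4201 closer. With 5 libraries of 2 groups, such likeness reflects in the main a similar step from WT to KI.

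Markers of other cells and regions differed between the libraries alongside the domain genes. Of 20 genes of the hypothalamus and ventral forebrain, where Peg3 is known to be abundant, 6 had a feature. All 6 had a log2 fold change above 0, from 0.20 to 0.60, where 49.7% of all features were higher. Their features carry labels of other genes. They cover 601 exon bases of Nkx2-1, 128 of Agrp, 540 of Hap1, 124 of Ahi1, 97 of Zcchc12 and 1109 of Lhx8. Both KI libraries lay above all WT libraries in 2 of the 6, against 11.3% of all features. Their summed level was 299.6 to 381.6 CPM in WT and 397.6 to 517.8 in KI, with KI replicate 1 the highest. None of the 6 was at 0 in WT, and the edgeR quasi-likelihood test called 0 (0.102% of all features). An unadjusted p under 0.05 was found for 3 (6.4% of all features), Zcchc12 at a log2 fold change of 0.56 (SE 0.14), Lhx8 at 0.60 (SE 0.24) and Hap1 at 0.46 (SE 0.19). The defining neuropeptide genes Avp, Oxt, Pmch and Hcrt have no feature. Peg3 stood at 1605 and 1565 CPM in KI replicates 1 and 3, in which this sum was 517.8 and 397.6 CPM.

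Choroid plexus markers were high in KI replicate 3, the library with the most Zim1. Of 11 markers 4 had a feature, and their sum was 345.2 to 412.4 CPM in WT, 292.3 in KI replicate 1 and 2617 in KI replicate 3. Most of the sum in KI replicate 3 was Ttr, at 41.8, 55.5 and 61.8 CPM in WT against 28.05 and 2093 in KI. Most of the sum in each other library was Enpp2, at 370, 289.8 and 326.5 CPM in WT against 264 and 517.5 in KI. Slc4a5 was at 0 in all WT libraries, with 0.271 and 3.71 CPM in KI. Without that library Peg3 and Usp29 had log2 fold changes of 0.69 and 1.15, against 0.67 and 1.07 with it, and Zim1 the 1.08 given above.

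Cortical projection neuron markers were lowest in KI replicate 3 (4 of 11 with a feature; 104.4 to 338.3 CPM in WT, 120.9 and 37.6 in KI). Thalamic markers (6 of 6) stood at 75.6 to 381.7 CPM in WT against 208.5 and 71.1 in KI. Spiny projection neuron markers, which define the striatum, were abundant in every library (5 of 16 with a feature), at 8597 to 11200 CPM in WT and 7230 to 8006 in KI. Both KI sums lay below all WT sums. Most of each sum was Penk, at 6722, 8271 and 7355 CPM in WT against 5296 and 5903 in KI. The sums therefore follow mainly that gene, and a sum without it was not tested. Of the 5 members, 4 were lower and 1 higher in KI by log2 fold change. Only Rgs9 and Penk were lower in each KI library than in every WT library. For Pde10a and Foxp1, KI replicate 3 stood above WT replicate 1. In the edgeR quasi-likelihood test 3 had an unadjusted p under 0.05 (6.4% of all features did), Rgs9, Penk and Pde10a, all lower. Glial sums were lower in both KI libraries than in any WT library. Astrocyte markers (3 of 6 with a feature) stood at 124.7 to 131.3 CPM in KI against 133.4 to 157.7 in WT. Oligodendrocyte markers (3 of 6) stood at 1169 to 1194 against 1271 to 1692, and microglia markers (2 of 6) at 17.2 to 21.2 against 21.4 to 28.6. Taken singly, 0 of the 3 astrocyte, 2 of the 3 oligodendrocyte and 1 of the 2 microglia markers had both KI libraries below all WT libraries. The share beyond in either direction over all features was 22.4%. Mog, an oligodendrocyte marker, stood at a log2 fold change of 0.01 (SE 0.14). The edgeR quasi-likelihood test called 0 members of these 6 lists at an adjusted p under 0.05, and no member with a feature was at 0 in all WT libraries. The part of tissue composition in the levels of Peg3, Usp29 and Zim1 was not tested.

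**Figure D5:**
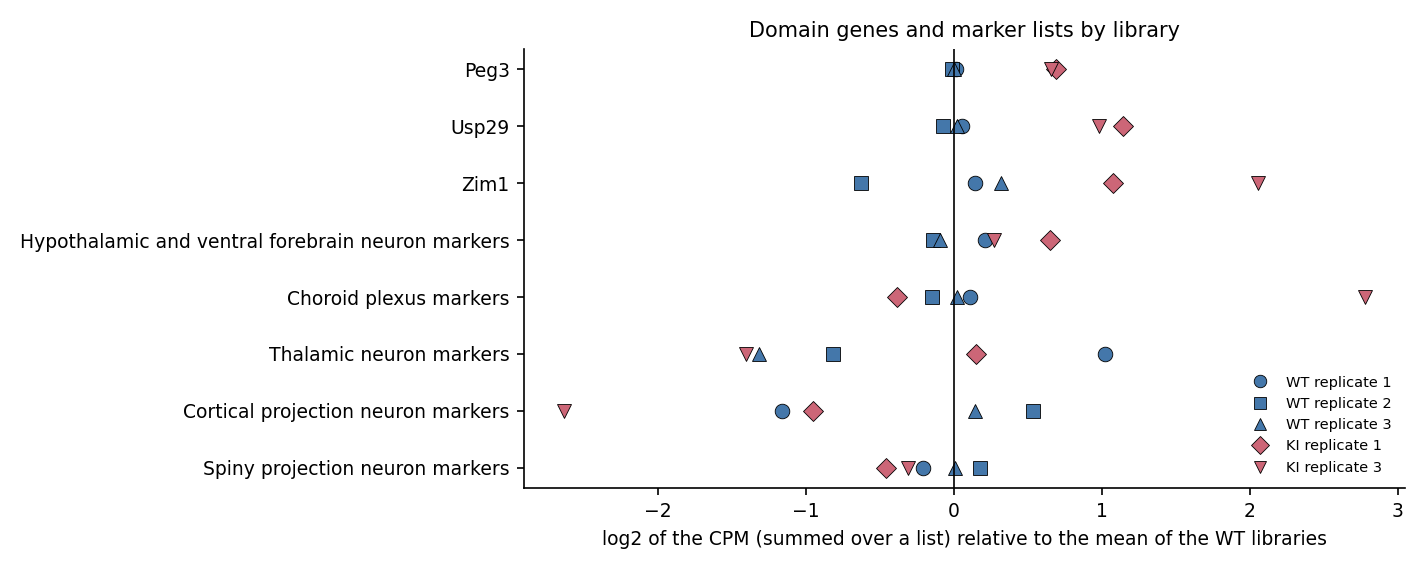
For each library, the log2 of the CPM relative to the mean of the WT libraries is shown for 3 domain genes and for the summed markers of 5 cell types; symbols mark the libraries, blue for WT and red for KI. Both KI libraries lie together for Peg3 and Usp29, while for Zim1 and for choroid plexus markers KI replicate 3 stands to the right of KI replicate 1.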

How the data were processed

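The deposited values are unnormalized counts, 1 file per library, which the authors made with featureCounts 2.0.1 and the Ensembl 103 annotation of GRCm39, per the file headers. Pairs were counted as fragments and given to each feature they overlapped, and strand was ignored, per the file headers. Neither the aligner nor its genome is given in the sources used here. Library totals ran from 6595105 to 7910584 per library.

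Features were laid over GENCODE M21 exons (GRCm38) by numeric position with bedtools 2.31.1 and named by the only gene there, or the only protein-coding one. This named 16422 features. No coordinate was converted. KI was compared with WT by filterByExpr, TMM and the quasi-likelihood test of edgeR 4.0.16 in R 4.3.3 (Benjamini-Hochberg, threshold 0.05), with DESeq2 1.42.0, limma 3.58.1 voom and 10 other settings as alternatives. The SE is the log2 fold change divided by the root of F. The test was tried on simulated counts.

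The members, gene lists and motifs were chosen with earlier results of these data known. From the imprinted, protease and imprint maintenance lists the members past the threshold were named (up to 4), or else the 2 with the smallest p, with the 4 nearest tested features on each side and the 5 profiles nearest to Peg3. Other genes were named after their values were seen. Interneuron, endothelial and ependymal marker sums were computed too and overlapped between the groups.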

Additional observations from a re-analysis of the deposited data

How the results depend on the processing

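The 12 alternatives left all 4 domain features higher in KI. Log2 fold changes ran from 0.65 to 0.72 for Peg3, 0.98 to 1.15 for Usp29, 0.94 to 1.11 for the feature labelled Zim3 and 1.08 to 2.05 for Zim1. Peg3 moved by more than its small replicate spread with unscaled library totals (0.72) and without KI replicate 1 (0.65), Zim1 did so without KI replicate 3 (1.08), and leaving out 1 library gave 0.65 to 0.69 for Peg3 and 1.08 to 2.05 for Zim1. The number of changed features, 14 in the edgeR test, was 183 without a low-count filter, 130 with the DESeq2 Wald test, 52 with limma voom and 2 to 161 on leaving out 1 library (161, 3 and 2 for WT replicates 1, 2 and 3, 30 and 6 for KI replicates 1 and 3). Peg3 was called in 9 of the 12 (not when WT replicate 2, WT replicate 3 or KI replicate 3 was left out), Usp29 in 11 (not without WT replicate 3), the feature labelled Zim3 in 10 and Zim1 in 5. A lone KI library is assumed to vary like WT. Of the paternally expressed genes, 2 were called without a filter, 2 with DESeq2 and 2 with the block below, against 1. Of the maternally expressed genes, 2 were called without a filter, 1 with DESeq2, 1 with limma voom and 0 to 2 without a library (2 without WT replicate 1 and 1 without KI replicate 1), against 0. Of the ubiquitin-specific proteases, 1 (Usp2) was called in each of the first 3 of these settings and 0 to 1 without a library (1 without WT replicate 1), against 0. The cause was not tested. The alternative naming by file label was not run for the features within 1 Mb, which are chosen by position.

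With the replicate number as a block, 154 features were called, with 2 paternally and 2 maternally expressed genes and 1 protease among them, and Peg3 stood at 0.67. The numbers are not said to mark a shared animal or day. Deviations from the group means correlated at 0.11 for replicates 1 and 0.07 for replicates 3. WT replicate 2, which has no KI partner, gave 0.05 with KI replicate 3. With 2 KI libraries the KI deviations mirror each other, so these values cannot decide whether the libraries are paired.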
